A study of Mus musculus with 21 samples.

Results

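The expression of 10 transcription factors that direct myeloid fate was examined in RNA from sorted hematopoietic stem cells (HSC) of mice: Cebpa, Cebpb, Cebpd, Cebpe, Spi1, Gfi1, Gfi1b, Irf8, Klf4 and Runx1. The factors were chosen by symbol, but with earlier results of these data known, as were the gene lists used below. Counts of them that passed are therefore not those of a blind choice. Of the factors, 10 of 10 were present in both deposited HSC tables, which list 13513 genes for sedentary and active mice and 13636 genes for active and transplant mice. All mice carried the MMTV-PyMT transgene, in which a mammary tumour virus promoter drives the polyoma middle T antigen in mammary epithelium. The sedentary group and the physically active group (3 biological replicates each) were both labelled week 12. The remaining group, called transplant here, consisted of sedentary mice that had received cells from a physically active mouse, and was labelled week 14 (3 replicates). The labels used here give neither the sorting markers, nor the transplanted cell type, nor the host cells that remained, and no group of sedentary mice transplanted from sedentary donors was analysed here. Donor activity, transplantation, host and week therefore cannot be told apart in a comparison of transplant with sedentary HSC.

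These factors act as a network of activators and repressors. C/EBP alpha, encoded by Cebpa, and PU.1, encoded by Spi1, open the myeloid programme in progenitors, and Runx1 encodes a core-binding factor subunit needed to form HSC. C/EBP epsilon and the repressor GFI1 carry cells along the neutrophil path, IRF8 and KLF4 favour monocytes and, for IRF8, dendritic cells, and GFI1B acts in erythroid cells and megakaryocytes. Several of them, Runx1 and Gfi1 among them, are also used by stem cells themselves.

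The deposited values were whole reads divided by 1 factor per library, and are given here as normalized counts after all HSC columns were placed on 1 common scale. Recovered totals were 16406889 to 24574563 reads in replicates 1 and 2, and 58500940 (sedentary), 71473823 (active) and 72417315 (transplant) in replicates 3. Active replicates 1 and 3 appear in both tables and differed there at 4 of 13380 shared genes. Active replicate 2, numbered 6 in the labels, was represented by a different column in each table, and the 2 columns differed at 13086 of 13380 genes. The column 6 deposited with sedentary HSC is called the first column 6, and that deposited with transplant HSC the second. Across 10800 genes, the first column 6 correlated with the transplant columns at r = 0.961 to 0.977 and with the sedentary columns at 0.883 to 0.917, and the second column 6 with the transplant columns at 0.927 to 0.950 and with the sedentary columns at 0.985 to 0.990 (Pearson, across genes, which are not independent replicates). Which of them is active replicate 2 is not known, so the comparisons with active HSC are given with each column and without either. Kit, a receptor of stem and progenitor cells, was present at 5135 to 7295 in every column, whereas Fgd5, a marker of long-term HSC, was at 34.5 to 72.6 in sedentary and 4.10 to 25.5 in transplant HSC, and Hoxb5 was not in both tables.

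Promoter sequence was taken from RefSeq (GRCm38.p6) for 7 of the 10 genes. Cebpd, Cebpe and Spi1 had no entry. The 250 bases before the first listed start are printed for the 3 factors whose RNA differed between transplant and sedentary HSC and whose window held no annotated exon. Capitals mark a match to any of 7 short motifs searched on both strands, and each is written 5′ to 3′ on the strand of its gene.
Cebpa, chr7:35119043-35119292, plus strand: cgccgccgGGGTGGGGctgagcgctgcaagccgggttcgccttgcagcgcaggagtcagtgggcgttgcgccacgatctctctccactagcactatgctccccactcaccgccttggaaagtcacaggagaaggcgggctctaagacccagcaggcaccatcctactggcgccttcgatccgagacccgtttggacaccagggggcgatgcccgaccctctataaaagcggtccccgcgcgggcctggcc
Irf8, chr8:120736108-120736357, plus strand: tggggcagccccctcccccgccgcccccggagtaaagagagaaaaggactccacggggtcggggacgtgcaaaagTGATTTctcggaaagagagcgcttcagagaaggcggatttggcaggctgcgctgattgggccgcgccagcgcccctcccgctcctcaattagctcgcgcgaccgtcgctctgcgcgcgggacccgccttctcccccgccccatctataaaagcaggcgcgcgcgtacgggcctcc
Klf4, chr4:55532476-55532725, minus strand: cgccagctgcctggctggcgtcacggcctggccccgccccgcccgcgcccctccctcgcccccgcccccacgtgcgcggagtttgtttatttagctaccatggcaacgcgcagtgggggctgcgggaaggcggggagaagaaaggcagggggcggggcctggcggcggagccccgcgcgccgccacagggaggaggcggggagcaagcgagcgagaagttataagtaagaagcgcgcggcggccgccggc
The Cebpa match is to the KLF motif CCNCACCC, on the opposite strand at 242 bases before the start, which 14.9% of 32851 mouse promoter windows of the same length also held. The Irf8 match is to the GFI motif AAATCA, on the opposite strand at 175 bases before the start, held by 12.4% of windows. The second Irf8 window and the Gfi1b window also held that motif. The Klf4 window held none of the 7. The C/EBP motif TTGCNNAA (9.56% of windows) occurred in the first Gfi1 window, which is not printed because it lies within annotated exons, and the PU.1 motif GAGGAA (23.3%) in the second Runx1 window, which also held the KLF motif. The RUNX motif TGTGGT (14.05%), the IRF motif (GAAA, any 2 bases, GAAA; 2.98%) and the GATA motif AGATAA (9.99%) occurred in none of the 10 windows of the 7 genes. Each printed window held at most 1 match, so no matches overlapped, and a match is a description of letters only.

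The comparison of transplant with sedentary HSC has neither column 6 in its groups, although both entered the common scale. In transplant HSC the neutrophil factors Cebpe and Gfi1 rose 9.53-fold and 2.87-fold, Klf4, Cebpa and Cebpd rose by 2.16-fold, 1.82-fold and 1.70-fold, and Irf8 fell, with a log2 fold change of -1.47. These 6 of 10 factors passed an adjusted p of 0.05 (limma on log2(value + 1), Benjamini-Hochberg over all genes), 5 higher and 1 lower, while 11.6% of 13335 genes tested passed, 7.92% higher and 3.7% lower. Spi1, Runx1, Cebpb and Gfi1b did not pass. The groups did not overlap for 7 of the 10 factors, against 38.8% of all genes. The median log2 fold change of the 10 was 0.58, and that of all genes was -0.00071. The count of 6 was reduced to 2 without sedentary replicate 1, 3 without sedentary replicate 2, 3 without transplant replicate 1 and 2 without transplant replicate 2, while the count over all genes was reduced from 1549 to 291, 235, 466 and 249. Irf8 and Gfi1 passed in each of the 6 fits that left out 1 library. With the replicate number as a block 0 of the 10 passed by limma (adjusted p 0.0513 to 0.0889 for the 6), at the same fold changes, and all replicates 3 were the deeper libraries of their groups. With replicates 1 and 2 alone 6 passed, beside 1935 of 13236 genes, more genes than the 1549 of the full comparison. Of the factors, Cebpa did not pass there (1.003, adjusted p = 0.0654), and Runx1 did.

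**Figure D1:**
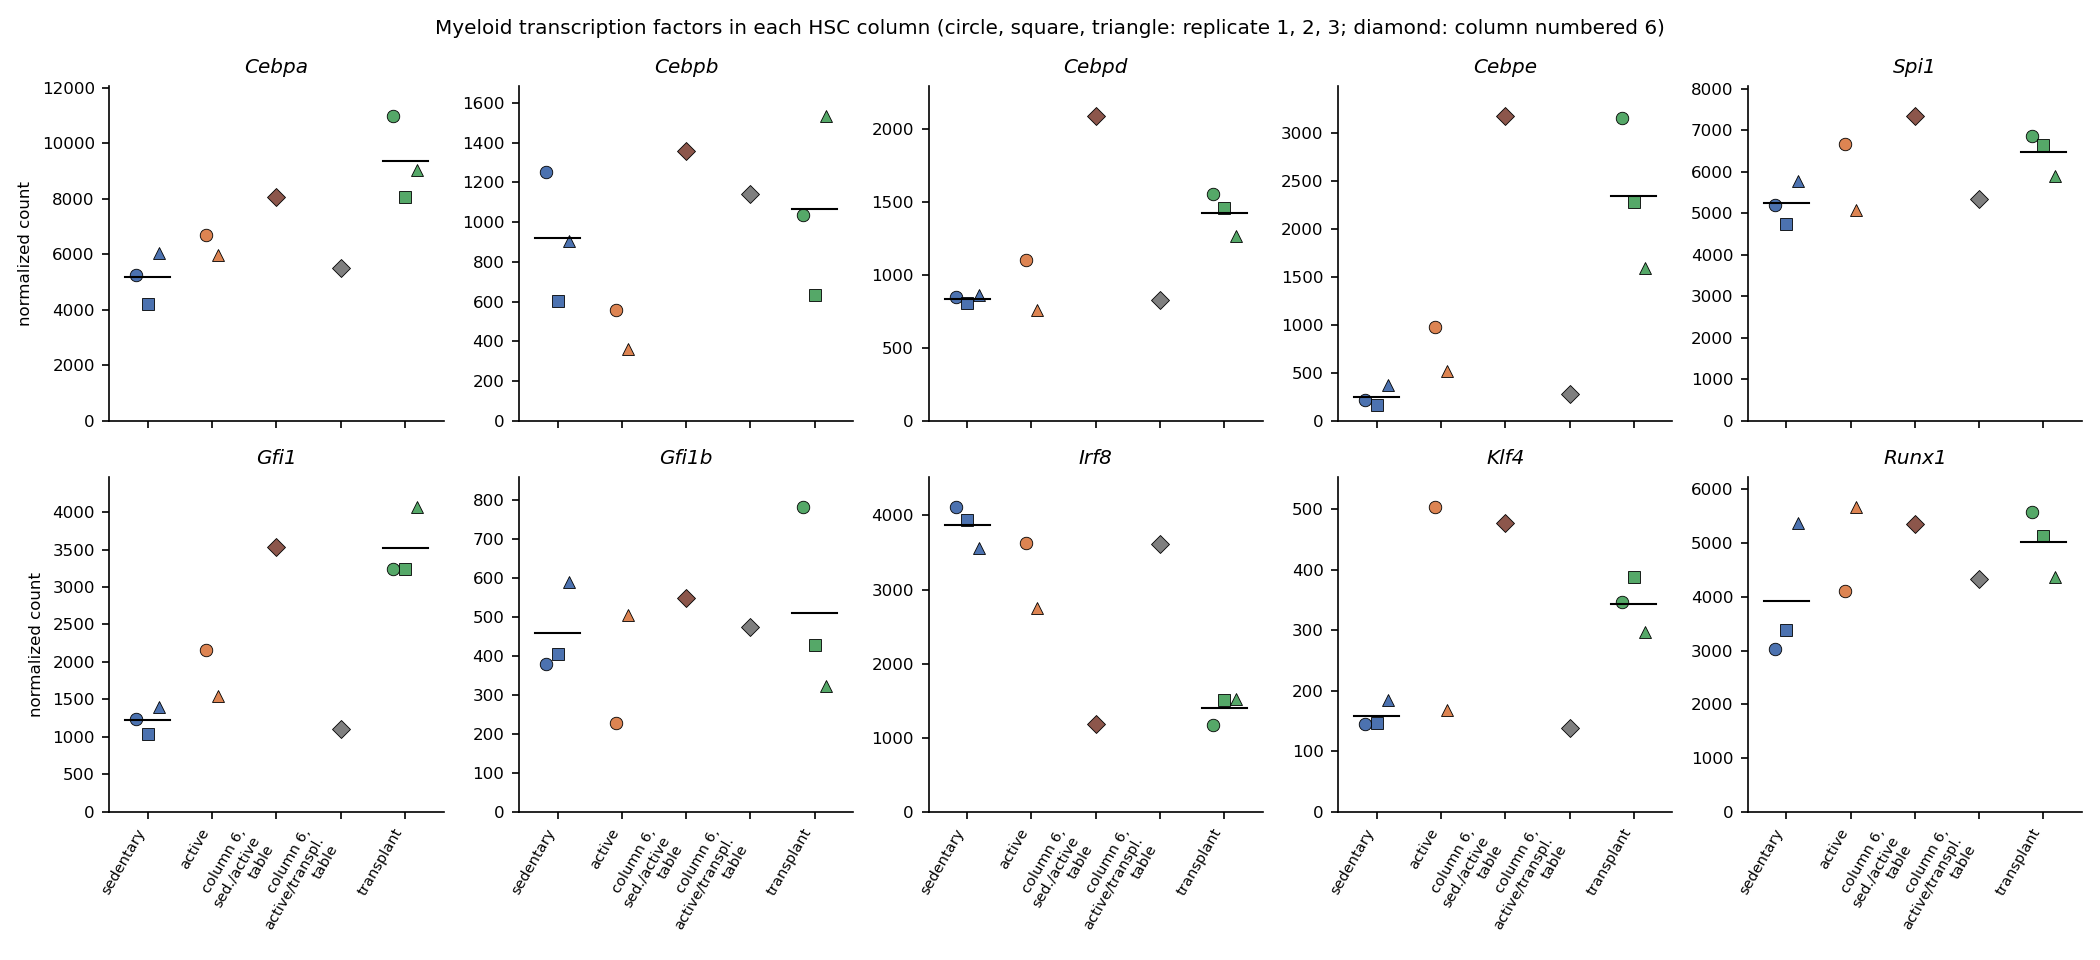
Normalized count (linear axis from 0) of each factor in every HSC column, with the 2 columns numbered 6 shown apart; symbols give the replicate and black bars the mean of 3 libraries. Irf8 lay at 3567 to 4112 in sedentary and 1165 to 1524 in transplant HSC, and the first column 6 lay with the transplant libraries for Irf8 and Cebpe while the second lay with the sedentary ones.

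Among the C/EBP factors, Cebpe, needed for the late neutrophil granules, moved most. It was at 212, 165 and 375 in sedentary replicates 1 to 3, at 975 and 518 in active replicates 1 and 3, at 3167 in the first and 276 in the second column 6, and at 3154, 2277 and 1595 in transplant HSC. Every transplant library was above every sedentary and active library other than the first column 6, and both active libraries lay above all sedentary ones. The transplant over sedentary log2 fold change was 3.25 ± 0.39 (SE, n = 3 per group; 95% interval 2.30 to 4.20; limma adjusted p = 0.0121). The call was lost without sedentary replicate 1 (adjusted p = 0.0555) or transplant replicate 2 (adjusted p = 0.0517).

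Cebpa, the factor required to form granulocyte-monocyte progenitors, was at 5261, 4196 and 6046 in sedentary, 6686 and 5968 in active, 8071 and 5495 in the first and second column 6, and 10972, 8079 and 9039 in transplant HSC. The 3 transplant values were the highest of the 10 columns. The log2 fold change of transplant over sedentary was 0.86 ± 0.19 (SE, n = 3 per group; limma adjusted p = 0.0436). It was the call nearest to the threshold, and it held in 1 of the 6 fits that left out a library, that without sedentary replicate 3 (adjusted p = 0.0456; 0.0688 to 0.134 in the other 5).

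Cebpd, an inducible member of the family, was at 846, 804 and 861 in sedentary HSC, with the smallest coefficient of variation of the 10 factors (3.50%), and at 1553, 1455 and 1267 in transplant HSC. Active replicates 1 and 3 gave 1104 and 759, on either side of the sedentary range, and the first and second column 6 gave 2086 and 829. The transplant over sedentary log2 fold change was 0.76 ± 0.12 (SE, n = 3 per group; limma adjusted p = 0.0204). The call was lost without sedentary replicate 1, sedentary replicate 2, transplant replicate 1 or transplant replicate 2 (adjusted p 0.0637 to 0.0917). Cebpb, which serves granulocyte production under stress, was at 1253, 602 and 905 in sedentary, 559 and 360 in active, 1358 and 1142 in the first and second column 6, and 1037, 634 and 1532 in transplant HSC. The sedentary and transplant groups overlapped widely and the 2 active libraries were the lowest of the 10 columns. The transplant over sedentary log2 fold change of Cebpb was 0.19, with a 95% interval of -0.82 to 1.19. In the annotation, Cebpb shares 20.7% of its exon bases with Tmem189 and Cebpd 15.0% with Spidr, both on the opposite strand. Whether reads were counted by strand is not given in the sources used here. Tmem189 and Spidr had log2 fold changes of 0.29 and 0.24 in the same comparison (limma adjusted p = 0.331 and 0.232).

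Spi1 and Runx1, whose products act across the myeloid lineages, did not pass the test. Spi1 was at 5202, 4747 and 5778 in sedentary, 6681 and 5085 in active, 7339 and 5338 in the first and second column 6, and 6855, 6646 and 5909 in transplant HSC. The sedentary and transplant ranges did not overlap but lay next to each other. Its log2 fold change was 0.31 ± 0.13 (SE, n = 3 per group; 95% interval -0.008 to 0.62; limma adjusted p = 0.166). Runx1 was at 3036, 3374 and 5369 in sedentary, 4100 and 5668 in active, 5352 and 4341 in the first and second column 6, and 5588, 5137 and 4365 in transplant HSC. Sedentary replicate 3 lay within the transplant range. The Runx1 log2 fold change was 0.40, with a 95% interval of -0.21 to 1.00 (limma adjusted p = 0.318). With replicates 1 and 2 alone, without the deeper replicates 3, it was 0.74 (limma adjusted p = 0.0443).

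In the GFI1 family, Gfi1 passed the test and Gfi1b did not. Gfi1, a repressor that favours neutrophils over monocytes, was at 1242, 1033 and 1401 in sedentary, 2161 and 1549 in active, 3538 and 1100 in the first and second column 6, and 3240, 3238 and 4066 in transplant HSC. The active libraries lay between the sedentary and transplant groups, which did not overlap. The transplant over sedentary log2 fold change was 1.52 ± 0.17 (SE, n = 3 per group; limma adjusted p = 0.0106), and 1.40 to 1.62 when any 1 library was left out. Gfi1b was at 379, 404 and 590 in sedentary, 228 and 505 in active, 549 and 474 in the first and second column 6, and 782, 428 and 323 in transplant HSC. All groups overlapped, and transplant replicate 1 was the highest of the 10 columns while transplant replicate 3 lay below every sedentary library. The Gfi1b log2 fold change was 0.09, with a 95% interval of -0.81 to 0.99, and its sign changed with the library left out. The difference between the Gfi1 and Gfi1b changes was not tested.

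The monocyte and dendritic cell factors went in opposite directions. Irf8 was at 4112, 3934 and 3567 in sedentary, 3624 and 2751 in active, 1188 and 3608 in the first and second column 6, and 1165, 1512 and 1524 in transplant HSC. All transplant libraries lay below all sedentary and active libraries, the first column 6 excepted. The transplant over sedentary log2 fold change was -1.47 ± 0.15 (SE, n = 3 per group; 95% interval -1.84 to -1.11; limma adjusted p = 0.00921), and -1.54 to -1.35 when any 1 library was left out. Klf4 was at 145, 147 and 184 in sedentary, 503 and 169 in active, 477 and 138 in the first and second column 6, and 346, 388 and 297 in transplant HSC. Active replicate 1 was the highest of the 10 columns, and active replicate 3 lay within the sedentary range. The log2 fold change of transplant over sedentary was 1.11 ± 0.16 (SE, n = 3 per group; limma adjusted p = 0.0170). The Klf4 call was lost without the same 4 libraries as that of Cebpd (adjusted p 0.0571 to 0.0764).

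**Figure D2:**
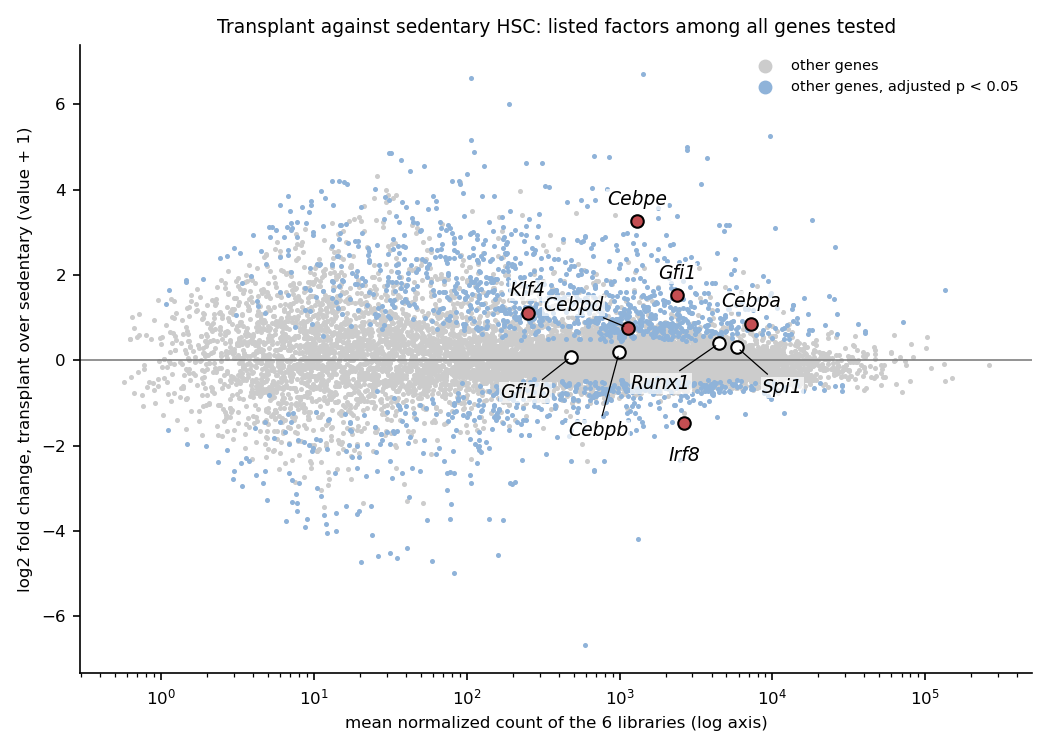
Log2 fold change (value + 1) of transplant over sedentary HSC against the mean normalized count of the 6 libraries (log axis) for 13335 genes; red points are listed factors past an adjusted p of 0.05 and white points those that were not. Cebpe, at 3.25, was the most changed of the 10, and Irf8 the one that fell.

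Active and sedentary HSC were compared next, the question the study's title raises for physical activity. The active libraries found in both tables lay above all 3 sedentary libraries for Cebpe and Gfi1 and below them for Cebpb. The share of all genes separated in this way by those active libraries alone was not counted, so this carries no weight as a difference. With the first column 6, the active over sedentary log2 fold changes were 2.31 ± 0.71 for Cebpe, 0.91 ± 0.33 for Gfi1, 1.12 ± 0.45 for Klf4 and -0.76 ± 0.42 for Irf8 (SE, n = 3 per group). Of the 10 factors 0 passed the limma adjusted p of 0.05, and 3 (Cebpe, Gfi1 and Klf4) had an unadjusted p under it. Of 13513 genes, 0% passed, and 1243 had an unadjusted p under 0.05. DESeq2 called 257 genes and edgeR 0, and neither called any of the 10. The groups did not overlap for 2 of the 10, Cebpe and Gfi1, against 19.4% of all genes. With the second column 6 the fold changes were 1.13 for Cebpe, 0.34 for Gfi1, 0.53 for Klf4 and -0.23 for Irf8, and with active replicates 1 and 3 alone they were 1.59, 0.59, 0.88 and -0.29. In the authors' deposited table, which holds the first column 6, 1.65% of 13513 genes had an adjusted p under 0.05 and 0 of the 10 factors, with Gfi1 (0.0577), Cebpe (0.0743) and Klf4 (0.0755) the nearest.

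Transplant and active HSC differ in transplantation, host and week. With the second column 6, the log2 fold changes of transplant over active were 2.12 ± 0.51 for Cebpe, 1.18 ± 0.27 for Gfi1, 0.68 ± 0.18 for Cebpd, 0.62 ± 0.16 for Cebpa and -1.25 ± 0.18 for Irf8 (SE, n = 3 per group). These 5 of the 10 factors had groups that did not overlap, against 25.3% of all genes. The same 5 had an unadjusted p under 0.05, as did 2417 of 13633 genes. By limma 0 of the 10 passed the adjusted p of 0.05, Irf8 being nearest at 0.127, and 0.0513% of 13633 genes did, which is 7 genes. DESeq2 called the same 5 factors (adjusted p from 2.6e-09 for Irf8 to 0.0115 for Cebpe) and 1107 genes, edgeR 0 of the 10 and 1 gene, and limma with the replicate number as a block 0 of the 10 and 0 genes. The 7 genes became 81, 0 and 4 without active replicates 1, 2 and 3, and 2, 0 and 22 without transplant replicates 1, 2 and 3. Of 13636 genes in the authors' deposited table, 7.92% had an adjusted p under 0.05, and so had 5 of the 10: Irf8 (5.92e-09), Gfi1 (0.000265), Cebpa (0.00365), Cebpd (0.0112) and Cebpe (0.0162). With the first column 6 in place of the second, the fold changes were 0.95 for Cebpe, 0.62 for Gfi1, 0.24 for Cebpd, 0.44 for Cebpa and -0.71 for Irf8. None of the 10 then had an unadjusted p under 0.05, and only 330 of 13380 genes did. With active replicates 1 and 3 alone the fold changes were 1.66, 0.93, 0.63, 0.56 and -1.18 in the same order (limma adjusted p 0.329 to 0.475). The comparisons with sedentary and with transplant HSC share the active libraries, so their values are not independent of each other.

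**Figure D3:**
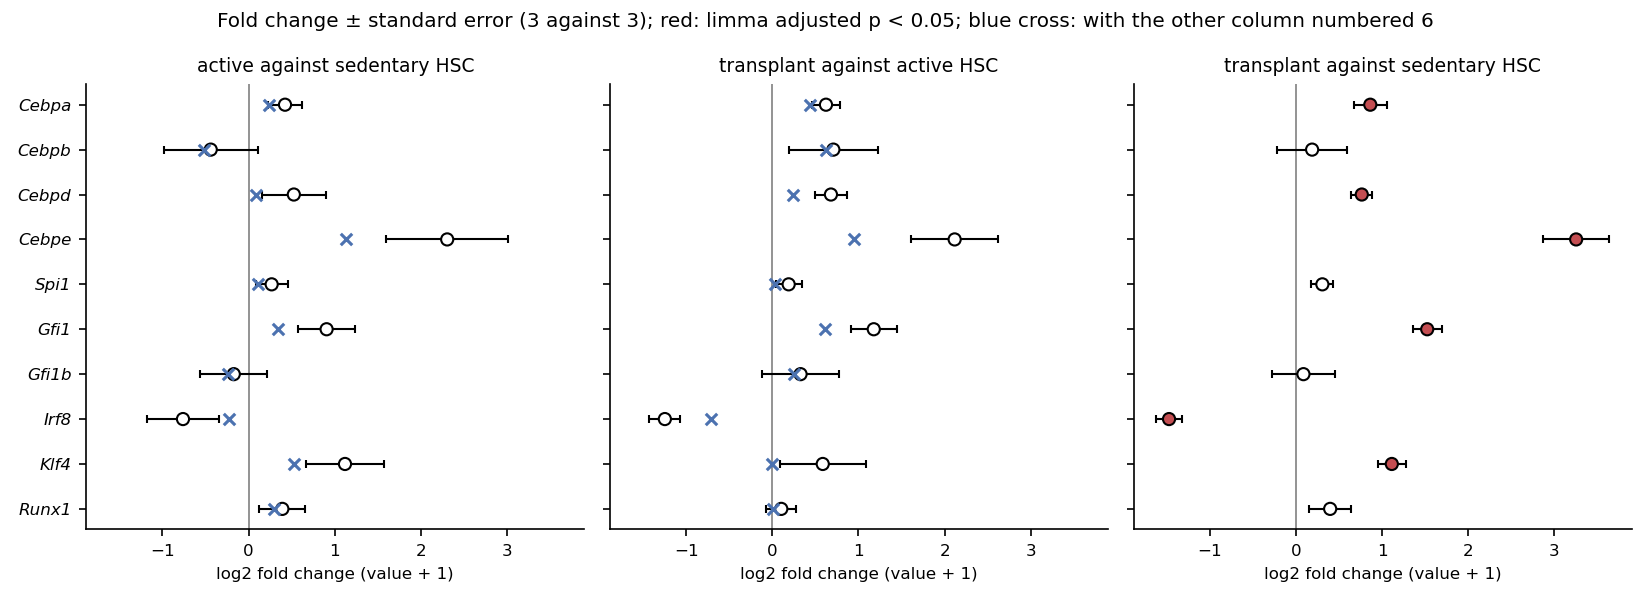
Log2 fold change (value + 1) of each factor with its standard error in the 3 comparisons, 3 libraries against 3; red points passed a limma adjusted p of 0.05, and blue crosses give the value with the other column numbered 6. With the other column, Cebpe moved from 2.31 to 1.13 (active over sedentary) and from 2.12 to 0.95 (transplant over active).

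The columns numbered 6 were also set against the groups factor by factor. The first column 6 was nearest to the transplant mean for 10 of 10 factors. The second was nearest to the sedentary mean for 7, to the transplant mean for 2 and to the active mean for 1. Active replicate 1 was nearer to the sedentary mean for 5 factors and to the transplant mean for 5, and active replicate 3 for 8 and 2. Thus the libraries of active HSC differed among themselves, and for Cebpe the active mean was 1553 ± 1416 with the first column 6 and 590 ± 355 with the second (SD, n = 3).

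Levels of different factors were compared per kilobase of annotated exon. In sedentary HSC the order of mean normalized count per kilobase was Cebpa (1961), Spi1 (1945), Cebpb (612), Irf8 (549), Gfi1 (384), Runx1 (327), Gfi1b (250), Cebpd (223), Cebpe (202) and Klf4 (52.0). The ranges over libraries of neighbours in that order overlapped except between Spi1 and Cebpb, between Irf8 and Gfi1 and between Cebpe and Klf4. In transplant HSC, Cebpe had rank 3 at 1887 per kilobase and Irf8 rank 9 at 198, while Cebpa (3552) and Spi1 (2401) led. There the range of Spi1 (2192 to 2544) overlapped that of Cebpe (1285 to 2541), and neighbours did not overlap only between Cebpa and Spi1, between Cebpe and Gfi1 and between Irf8 and Klf4.

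Factors that passed for a difference between transplant and sedentary HSC correlate over the 10 columns in part for that reason. Pearson's r on log2(value + 1) was 0.96 between Cebpe and Gfi1, 0.94 between Cebpe and Cebpa and 0.92 between Cebpe and Cebpd, and Irf8 was opposed to Cebpe at -0.93 and to Gfi1 at -0.91. Cebpb and Gfi1b stood apart, with r of -0.32 to 0.41 and -0.40 to 0.59 with the other factors. Spi1, which did not pass, had r of 0.90 with Cebpe, 0.91 with Cebpd and 0.93 with Klf4, and Klf4 and Cebpa had 0.74. These values describe 10 columns that fall into groups and include both columns numbered 6, so the points are not independent. Among genes with a mean of at least 50, the most similar to Cebpe were Pilrb1 (0.995) and Cd97 (0.993), to Gfi1 Lta4h (0.995) and Dstn (0.994), to Cebpa Cass4 (0.982) and Cables1 (0.980), and to Irf8 Parp8 (0.985) and Bmyc (0.974). For Cebpd they were Gabarap (0.988) and Itm2b (0.988), for Spi1 Ctsa (0.989) and Ccdc109b (0.983), and for Klf4 Fgr (0.977) and Tlr13 (0.973). The nearest for Runx1 were Ptpn11 (0.968) and Zfp563 (0.967), for Gfi1b Galnt1 (0.957) and Slc35e3 (0.944), and for Cebpb Akirin2 (0.923) and Taf10 (0.882).

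Granule genes, textbook targets of the C/EBP factors, were higher in transplant than in sedentary HSC. Of 12 primary granule genes 11 rose and 0 fell (median log2 fold change 1.37), among them Mpo, which encodes myeloperoxidase (65629.9 ± 12040.2 in sedentary and 205099.8 ± 31890.7 in transplant, SD, n = 3; log2 fold change 1.65), Fcnb (4.07), Srgn (1.497) and the protease gene Ctsg (1.44). A list of 14 holds secondary and tertiary granule genes, which mature neutrophil precursors make. It also holds neutrophil genes whose products are not granule proteins, S100a8, S100a9, Padi4 and Ltb4r1 among them. Of these 14 genes, 13 rose and 0 fell (median 3.54), including Chil3 (4.92), S100a9 (4.74), S100a8 (4.13) and Lcn2 (2.94). The summed level of 9 neutrophil markers of 10 listed was 3786 to 5325 in sedentary and 34380 to 40729 in transplant HSC. It was 6563 to 19482 in active replicates 1 and 3, 131089 in the first and 4719 in the second column 6. S100a8, S100a9, Mmp8, Camp, Ltf and Ngp are both among these markers and in the list of 14, so the sum is not separate from that list. Without sedentary replicates 1, 2 or 3 in turn, 5, 5 and 9 primary granule genes and 10, 10 and 12 secondary and tertiary ones passed as higher. Without transplant replicates 1, 2 or 3, 7, 3 and 9 and 10, 8 and 11 did. Retnlg, made by mature neutrophils, was at 0 in sedentary and 1.64 to 7.38 in transplant HSC, and Ly6g was not in both tables. The part of other cells among those sorted in the changes of the 10 factors was not tested. In bulk RNA, fewer cells of a type and less RNA per cell cannot be told apart.

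Of 10 myeloid growth factor receptors 3 rose and 1 fell. Csf2ra (1.49), Il3ra (0.86) and Csf2rb (0.61), subunits of the GM-CSF and IL-3 receptors, rose, and Flt3, the receptor of lymphoid-primed and dendritic cell progenitors, fell from 2496 ± 177 to 154 ± 93.4 (SD, n = 3; log2 fold change -4.18). Of 17 monocyte and dendritic cell genes 4 rose and 1 fell. The monocyte genes Ly6c2 and F13a1 rose by 3.16 and 3.17 on the log2 scale and Maf by 2.30, and Tcf4, the plasmacytoid dendritic cell factor, fell (-0.85), the direction of Irf8. The summed level of 6 of 8 monocyte and macrophage markers was 15681 to 19947 in sedentary and 21552 to 25374 in transplant HSC, and that of 4 of 6 dendritic cell markers, Flt3 among them, was 3656 to 4209 and 1334 to 1539. Without Flt3 the other 3 dendritic cell markers summed to 1250 to 1610 and 1213 to 1280, ranges that overlap. Ccr2, the monocyte marker of highest level, was at 10459 to 15904 in sedentary and 6137 to 11005 in transplant HSC. The 5 other monocyte and macrophage markers summed to 3514 to 5222 and 14323 to 16339. Csf1r, Ly6c2, Ccr2, Cd68 and Fcgr1 are both among these markers and in the gene lists of this paragraph, so the sums are not separate from those lists. The sums of 6 mast cell and basophil markers (1432 to 3068 and 4669 to 8681) and of 6 of 8 erythroid markers (155 to 207 and 222 to 533) were also higher in all transplant libraries. The part of cells of these lineages in the changes of the 10 factors was likewise not tested. Leaving out sedentary replicate 1, sedentary replicate 2 or transplant replicate 2 left 1, 0 and 0 receptors and 2, 2 and 2 monocyte and dendritic cell genes higher, and without transplant replicate 1 they were 1 and 3. Without sedentary replicate 3 and without transplant replicate 3, 3 and 5 receptors and 6 and 5 monocyte and dendritic cell genes were higher. Flt3 was the lower receptor in the full comparison, and 1 receptor was lower in each of these fits.

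Among 27 other transcription factors of myeloid and stem cells 2 rose and 4 fell. Hlf (-1.13), Hoxa9 (-1.71) and Myc (-0.66), which serve stem and progenitor cells, fell and Klf6 rose (1.16). The summed level of 10 of 11 stem and progenitor markers was 25645 to 28537 in sedentary and 16996 to 18842 in transplant HSC, with Cd34 the largest member (14354 to 18071 and 5962 to 8433). Of 13 lymphoid factors tested, of 17 listed, 3 fell and 0 rose, namely Sox4 (-1.55), Satb1 (-1.45) and Tcf3 (-0.55). Of 13 megakaryocyte and erythroid factors Bcl11a passed as lower (-1.005) and 0 as higher, and 5 of the 13 had a positive fold change. The summed level of 7 megakaryocyte markers was nevertheless 2186 to 3916 in sedentary and 9286 to 26750 in transplant HSC. Of these 27 factors, 0 passed without sedentary replicate 1, sedentary replicate 2 or transplant replicate 2, 2 without transplant replicate 1, and 5 and 6 without sedentary replicate 3 and transplant replicate 3. Of the lymphoid factors 1 fell without any 1 library other than transplant replicate 3, without which 2 did, and Bcl11a's list held 0 lower genes without sedentary replicate 2, transplant replicate 1 or transplant replicate 2. Of 11 partners of RUNX and cofactors of GFI1 tested, of 12 listed, 0 passed by limma and by DESeq2 3, the nearest being Runx3 (-0.53, adjusted p = 0.0502) and Runx2 (-0.52, adjusted p = 0.0623).

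**Figure D4:**
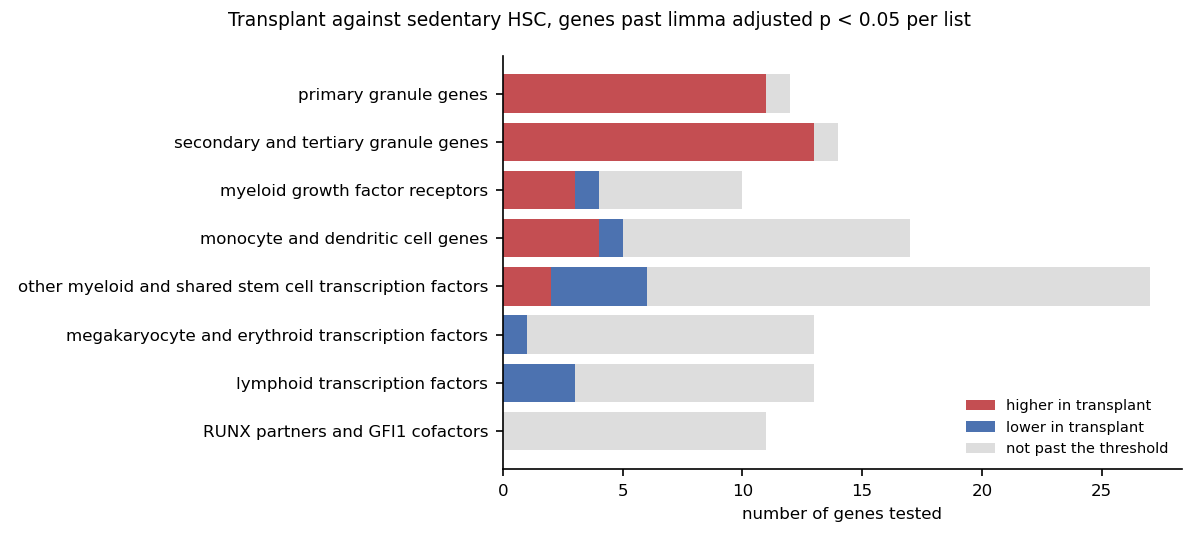
Number of genes of each list that were higher (red), lower (blue) or not past an adjusted p of 0.05 (grey) in transplant against sedentary HSC. The granule lists had 11 of 12 and 13 of 14 genes higher, and the list of RUNX partners and GFI1 cofactors had 0 past the threshold.

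In the comparisons with active HSC, 0 genes of these lists passed by limma. With the first column 6, the median log2 fold change of active over sedentary was 0.86 for primary granule genes and 2.64 for secondary and tertiary granule genes, with Mpo at 1.19 and Mmp8, a granule collagenase, at 1.14 (limma adjusted p = 0.478 for both). With the second column 6 the list medians were 0.29 and 1.04, and with active replicates 1 and 3 alone 0.52 and 1.503. Transplant over active, with the second column 6, gave medians of 1.02 and 2.44, with Nkg7 at 1.14 and Cd177 at 3.10 (limma adjusted p = 0.165 and 0.127), with the first column 6 medians of 0.47 and 0.69, and with active replicates 1 and 3 alone 0.68 and 1.96. The medians of all genes were 0.0036 and 0.0045. DESeq2 called 9 secondary and tertiary granule genes in active against sedentary and 6 in transplant against active HSC, and limma without active replicate 1 called 7 of them in transplant against active HSC.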

How the data were processed

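RNA of sorted HSC from 3 sedentary, 3 active and 3 transplant mice was sequenced from stranded mRNA libraries, per the labels' protocols. The submitters' processing notes name the build mm10, and the aligner, counter and annotation are not given in the sources used here. The authors deposited, per table, a normalized signal per gene (reads over 1 factor per library), a log2 fold change and p-values. Whole reads were recovered for 100% of the values of every column (tolerance 0.05 reads), and the 10 HSC columns were brought to 1 scale by the median of ratios over genes in both tables. The tumour tables were not used here.

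limma 3.58.1 (lmFit, eBayes, no trend) in R 4.3.3 was fitted to log2(value + 1) for genes whose mean reached 1 in at least 1 group, with Benjamini-Hochberg adjustment over all genes and a threshold of 0.05. Fold changes are on that scale, which understates low genes. Alternatives were edgeR 4.0.16 (scale and quasi-likelihood test), DESeq2 1.42.0, limma-voom (chosen after seeing the data), other pseudocounts, filters and thresholds, the values as deposited, the other column 6, a replicate block, replicates 1 and 2 alone and each library left out. Transplant and active libraries that carry the same number deviated from their groups together (r = 0.161, 0.158 and 0.314, with the second column 6). The labels give no pairing of libraries. All reported fits were therefore unpaired, and the replicate block was run only as an alternative.

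The 10 factors are described in full, the 2 most similar genes for each, and of each gene list up to 4 genes that passed, by smallest p, or the 2 smallest where none passed. The members, gene lists, motifs and tests were chosen with earlier results of these data known. Fits were also run on simulated counts as a self-test of the code. Its outcome is not given here and carries no weight for the calls on these factors. The libraries are called biological replicates in the labels, and p-values measure the spread between them. Exon lengths and positions are from GENCODE M21. Symbols turned into dates (21 per table) were tested but are not named.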

Additional observations from a re-analysis of the deposited data

How the results depend on the processing

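Identity of active replicate 2, 3 libraries per group and the deeper replicates 3 limit these comparisons. With 3 against 3 libraries, a difference of the size seen for Spi1 or Runx1 was not resolved from 0.

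Of the 10 factors, 0 passed in active against sedentary HSC under every alternative run. The number of genes called there was 0 except 1 with a pseudocount of 0.1 and 257 by DESeq2. In transplant against active HSC the 7 genes became 14 at an adjusted p under 0.10, 1 by edgeR, 1107 by DESeq2, 0 by limma-voom, 0 with the replicate block, 0 with replicates 1 and 2 alone and 1 with the other column 6, and 0 to 81 when 1 library was left out; the factors called stayed at 0 except 5 by DESeq2. In transplant against sedentary HSC the 1549 genes became 2951 at an adjusted p under 0.10, 2566 by edgeR, 3165 by DESeq2, and 235 to 1665 when 1 library was left out, and the 6 factors became 2 to 6.

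The deviations of same-numbered sedentary and transplant libraries had r of -0.276, 0.195 and -0.132. Those of sedentary and active libraries had r of 0.399, -0.142 and 0.0548. These signs were mixed, although replicates 3 share a greater depth in all groups. A replicate block in transplant against sedentary HSC gave 95 genes and 0 factors (adjusted p 0.0513 for Gfi1 to 0.0889 for Cebpa). The block changed no other call on a factor. With a pseudocount of 0.1 Cebpa missed the threshold (adjusted p = 0.0514).

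Within each comparison, signs changed only for factors that did not pass in that comparison. With 1 library left out, Gfi1b ran from -0.40 to 0.23 in active against sedentary HSC (0.026 without sedentary replicate 3, 0.23 without active replicate 1), from -0.038 to 0.61 in transplant against active HSC (-0.028 without transplant replicate 1) and from -0.27 to 0.37 in transplant against sedentary HSC, where limma-voom gave -0.150. Cebpb ran from -0.12 to 0.52 in transplant against sedentary HSC (-0.087 without sedentary replicate 2), and with replicates 1 and 2 alone was -0.100 there and 0.0045 in active against sedentary HSC. Klf4 in transplant against active HSC was -0.0080 with the other column 6. The cause of these changes was not tested.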
